A study of Mus musculus with 13 samples.

Results

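The genes Snai1, Snai2, Twist1, Twist2, Zeb1 and Zeb2, which encode the core transcription factors of the epithelial-to-mesenchymal transition (EMT), were examined in lists of H3K27ac peaks from 9 mouse melanoma cell lines. They are 6 of the 55450 genes of the annotation and were taken by name. For each gene, all peaks that overlapped the gene body or the 50 kb on each side of it were taken, and a promoter was called where a peak lay within 1 kb of a transcription start site (TSS). The windows held between 13 peaks (Ma_1062 and Ma_1069) and 30 peaks (Ma_1007) per list.

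H3K27ac, an acetyl group on lysine 27 of histone H3, marks promoters and enhancers that are active. The lines came from melanomas of mice with the Tyr::NRAS Q61K transgene, which is driven by the tyrosinase promoter in pigment cells, and 1 inactive Cdkn2a allele (Cdkn2a+/−). The 4 Ecad lines (males Ma_1007 and Ma_1181, females Ma_1014 and Ma_1039) came from Cdh1 F/F animals without Cre and kept E-cadherin. The 5 ΔEcad lines (males Ma_1062 and Ma_1456, females Ma_1057, Ma_1064 and Ma_1069) came from Tyr::CreA; Cdh1 F/F animals, in which the E-cadherin gene is deleted in the melanocyte lineage. Each line was grown in culture without a treatment and gave 1 list, so the replicates were lines.

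Snail, Twist and Zeb factors bind E-box motifs in DNA. Snail and Zeb proteins are zinc-finger factors that repress epithelial genes, Cdh1 among them, whereas Twist proteins are basic helix-loop-helix factors that pair with E proteins. In the pigment lineage, SNAI2 and ZEB2 are known from normal melanocytes and differentiated melanoma, whereas ZEB1 and TWIST1 are known from invasive, dedifferentiated melanoma. The comparison of Ecad with ΔEcad asks whether the active chromatin at these regulators differed with the presence of E-cadherin, one of the proteins they control.

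The lists held between 20741 and 41663 peaks and covered between 29.5 and 67.2 Mb of the genome. Ma_1007 had the longest list and Ma_1069 the shortest. Read depth is unknown, so a gene without a peak is a gene at which none was listed, not one without the mark. Of 10 melanocyte markers, between 7 and 10 had a called promoter in each list, and Sox10, Mitf, Dct, Tyr, Pmel, Mlana and Pax3 had one in all 9. Of 8 fibroblast markers, at most 2 were called in an Ecad list and at most 1 in a ΔEcad list. At most 1 of 5 endothelial and at most 1 of 6 keratinocyte markers were called in any list, and none of 6 immune markers was. The promoter of Cdh1 itself was called in none of the 9 lists. Peaks covered 9.29 to 17.4 kb of its window in the Ecad lists, 10.9 and 12.2 kb in the male ΔEcad lists and 4.46 to 6.03 kb in the female ΔEcad lists. The female ΔEcad lists were thus below all others (exact permutation p = 0.0119, adjusted p = 0.108), as for 18.5% of all genes. The deleted stretch of Cdh1 was not examined on its own, so these peaks check no genotype label.

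The promoters of the 6 genes were called in very different numbers of lists. The Zeb2 promoter was called in 9 of 9 lists, that of Snai2 in 6, that of Zeb1 in 3 and that of Twist1 in 1. The promoters of Snai1 and Twist2 were called in no list. The map of peaks around Snai1, Twist2, Zeb1 and Zeb2 shows the bare starts of Snai1 and Twist2.

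**Figure D1:**
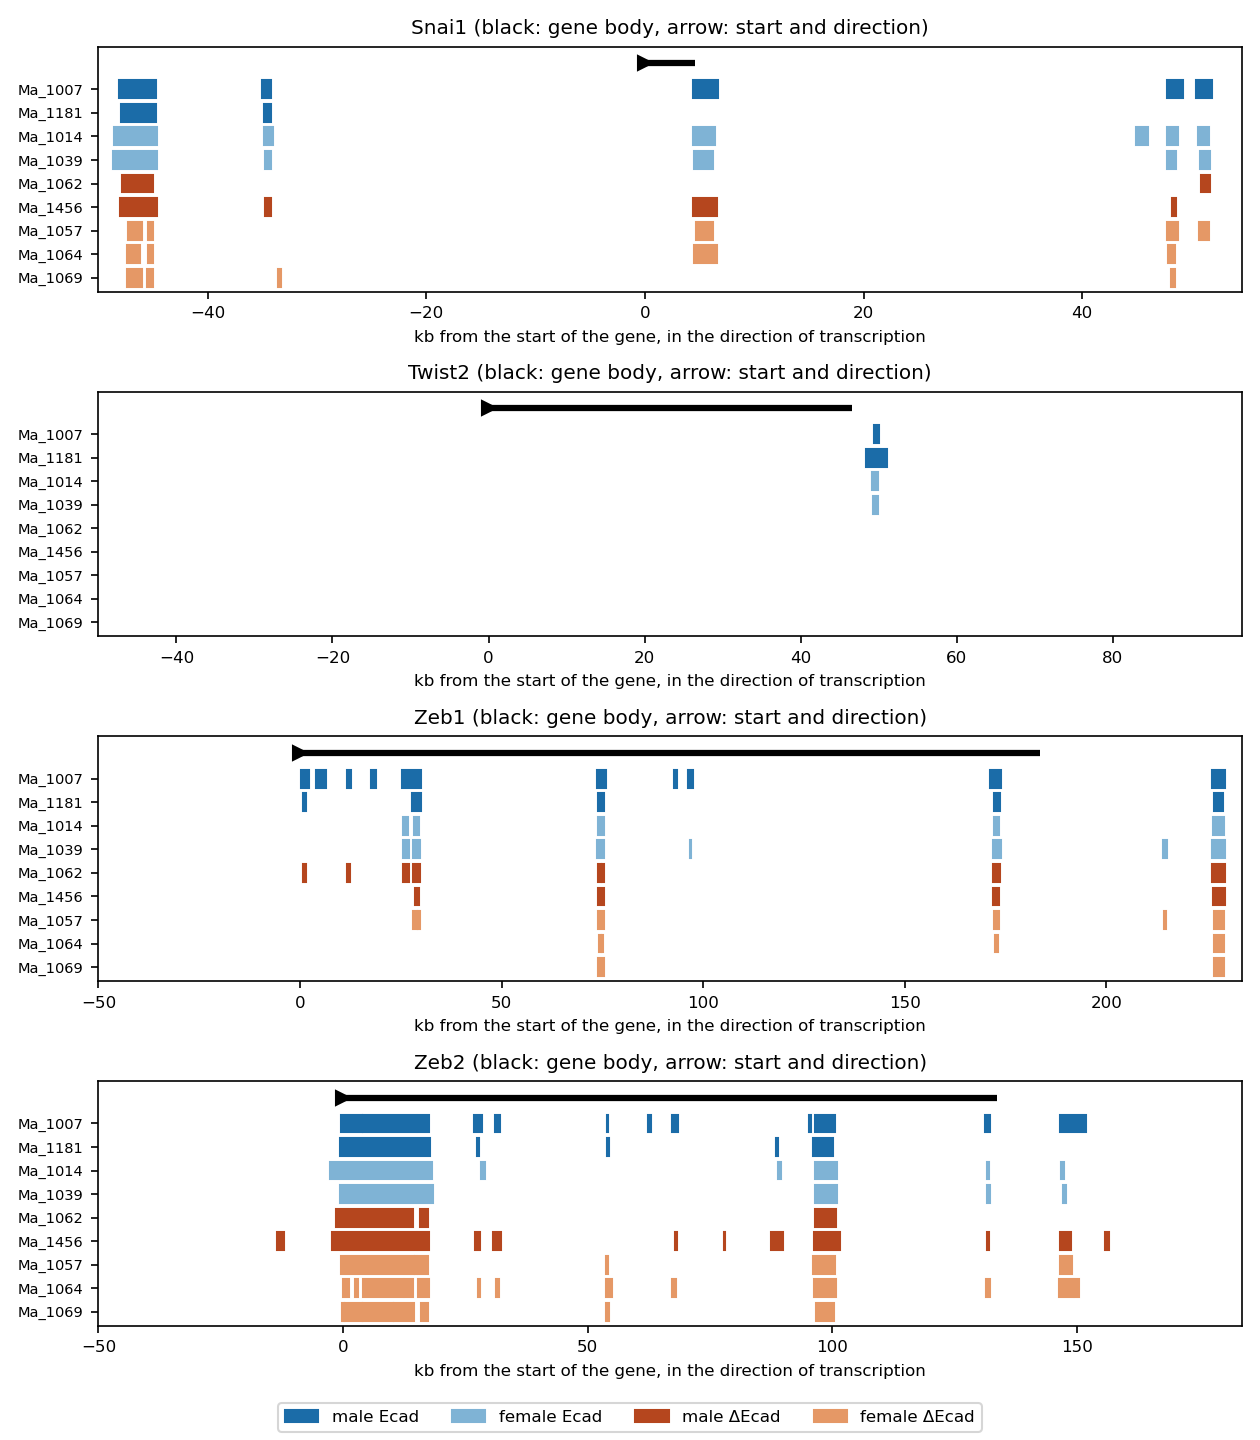
Peaks of each list (bars, 1 row per line, coloured by sex and genotype) against the distance in kb from the start of Snai1, Twist2, Zeb1 and Zeb2, with the gene body in black. Zeb2 had peaks within 1 kb of its start in all 9 lists, Zeb1 in 3, and Snai1 and Twist2 in none. The only peaks in the window of Twist2 were those of the 4 Ecad lines past its end.

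Sequences are shown for the starts that set this order and for the element that separated the genotypes. RefSeq (GRCm38.p6) held promoter sequences for 4 of the 6 genes, and those of Snai2 and Zeb1 are named only. Each promoter is the 300 bases around the start, in the direction of transcription. Capitals mark matches, on either strand, to 5 short motifs searched as letters: CAGGTG (the E-box of Snail and Zeb factors), CACGTG (the E-box of MITF), TGANTCA (AP-1), CTTTGA (the core of TCF and LEF sites) and GGAATG (TEAD). That of Snai1 had no peak over it in any list, that of Twist1 had one in Ma_1007 only, and both Zeb2 sequences shown lay under peaks in all 9 lists. Other RefSeq promoters of Zeb2 are not shown, nor is that of Twist2, which had no peak over it in any list.
Snai1 promoter, chr2:167537945-167538244, + strand: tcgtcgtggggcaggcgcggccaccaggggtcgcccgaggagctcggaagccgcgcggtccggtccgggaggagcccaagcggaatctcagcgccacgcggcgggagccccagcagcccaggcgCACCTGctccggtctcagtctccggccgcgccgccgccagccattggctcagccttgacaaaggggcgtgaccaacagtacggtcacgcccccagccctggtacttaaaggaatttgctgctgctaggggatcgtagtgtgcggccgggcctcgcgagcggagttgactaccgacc
Twist1 promoter, chr12:33957421-33957720, + strand: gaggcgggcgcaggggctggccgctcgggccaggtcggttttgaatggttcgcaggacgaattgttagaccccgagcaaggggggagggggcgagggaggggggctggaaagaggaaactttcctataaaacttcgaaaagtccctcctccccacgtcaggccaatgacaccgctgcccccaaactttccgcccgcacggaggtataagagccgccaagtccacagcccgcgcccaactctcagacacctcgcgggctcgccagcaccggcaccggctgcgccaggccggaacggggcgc
Zeb2 promoter, chr2:45117393-45117692, − strand: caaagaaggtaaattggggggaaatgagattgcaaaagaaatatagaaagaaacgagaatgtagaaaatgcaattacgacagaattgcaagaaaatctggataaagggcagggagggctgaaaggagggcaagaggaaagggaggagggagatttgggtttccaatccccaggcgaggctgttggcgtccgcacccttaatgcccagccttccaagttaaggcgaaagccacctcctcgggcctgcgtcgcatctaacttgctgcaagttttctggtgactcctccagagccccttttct
Zeb2 internal start, chr2:45110228-45110527, − strand: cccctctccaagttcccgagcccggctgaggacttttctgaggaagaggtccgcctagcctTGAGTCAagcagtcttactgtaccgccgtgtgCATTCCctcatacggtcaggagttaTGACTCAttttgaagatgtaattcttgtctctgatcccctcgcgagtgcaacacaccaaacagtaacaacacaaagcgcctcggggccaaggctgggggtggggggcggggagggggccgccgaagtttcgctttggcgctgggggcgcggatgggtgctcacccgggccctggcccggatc
The Snai1 promoter held 1 E-box, read as CACCTG from base 125, and 20.2% of the 32851 promoters in the table held that motif. The internal start of Zeb2 that is shown, 7.12 kb inside the gene, held AP-1 matches from bases 62 and 119 and a TEAD match from base 94. AP-1 and TEAD matches were present in 7.81% and 14.7% of all promoters. The Twist1 promoter and the promoter at the 5′ end of Zeb2 held no match to the 5 motifs.

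The single element in the window of Twist2 lay past the end of the gene. It is shown as the 300 bases (GRCm38) around the summit of its strongest peak, which was that of Ma_1181, and holds no match to any of the 5 motifs.
Twist2 element, chr1:91850729-91851028, + strand: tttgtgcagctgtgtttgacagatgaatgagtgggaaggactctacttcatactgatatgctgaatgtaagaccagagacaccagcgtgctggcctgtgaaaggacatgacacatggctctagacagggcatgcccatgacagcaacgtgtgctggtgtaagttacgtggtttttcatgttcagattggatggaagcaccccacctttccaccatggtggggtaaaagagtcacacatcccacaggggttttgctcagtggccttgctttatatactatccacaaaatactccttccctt

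Twist2, a repressor of differentiation genes in mesenchyme, was the member in which the genotypes separated. The gene lies at chr1:91801461-91848028 (+ strand, ENSMUSG00000007805.4), and the element at chr1:91849804-91852519 is between genes, with its summit 49.4 kb from the start of Twist2. Peaks there covered 0.598 kb in Ma_1007, 2.72 kb in Ma_1181, 0.858 kb in Ma_1014 and 0.744 kb in Ma_1039, and no ΔEcad list had a peak in the window. The groups did not overlap: 1.23 ± 0.997 kb (SD, n = 4) in Ecad against 0 kb in all 5 ΔEcad lists. The exact permutation test (two-sided) gave p = 0.00794, the smallest that 4 against 5 lines allow, and 0.230 after Benjamini-Hochberg adjustment over 40527 genes. Covered lengths of 5.77% of all genes were lower in every ΔEcad list than in every Ecad list.

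The peaks of the Twist2 element were mostly weak. Within its own list, ranked by −log10 q, the peak stood at the 6.00th percentile in Ma_1007, the 27.9th in Ma_1014, the 22.6th in Ma_1039 and the 77.3rd in Ma_1181. Only the peak of Ma_1181 was thus above the 50th percentile of its list. The element was called in 4 of 4 Ecad and 0 of 5 ΔEcad lists (Fisher's exact p = 0.00794, 1 after adjustment over 59668 elements), a pattern shown by 0.551% of all elements. When every list was cut to the length of the shortest, 2 of 4 Ecad lists and 0 of 5 ΔEcad lists still called it, and the covered length no longer passed (difference −0.893 kb, exact permutation p = 0.167). When only peaks above the median of their list were kept, 1 of 4 Ecad lists called it, and the difference of −0.679 kb did not pass either (exact permutation p = 0.444). Without Ma_1181, the line with the widest peak, the difference was −0.733 kb.

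Twist1, the factor best known from mesoderm and neural crest and from invasive tumours, had a peak in only 1 list. The gene lies at chr12:33957671-33959829 (+ strand, ENSMUSG00000035799.6). In Ma_1007 a peak of 790 bp, chr12:33957566-33958355, covered its start and first exon with a fold enrichment of 7.19 and a percentile of 47.9. The other 3 Ecad and all 5 ΔEcad lists had no peak in the whole window. The promoter call was therefore 1 of 4 against 0 of 5 (Fisher's exact p = 0.444). Ma_1007 was also the longest list, and the peak was lost when the lists were cut to equal length. The same list had the most promoters of fibroblast markers called, 2 of 8 against 1 in Ma_1181, Ma_1057 and Ma_1069 and 0 in the other lists, with Col1a1, Col1a2, Col3a1, Dcn, Lum and Thy1 called in none. Their part in the result was not tested.

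Snai1, the archetypal repressor of Cdh1, had peaks in its window in all 9 lists but none within 1 kb of its start. The gene lies at chr2:167538195-167542814 (+ strand, ENSMUSG00000042821.7), and its window held 7 elements. The one nearest the gene, chr2:167542569-167544860, began over the last bases of the gene and had its summit 5.69 kb from the start. An enhancer beyond the 3′ end of the human gene is known from melanoma cells. This element is described for its place next to the gene and was chosen after its values were seen. It was called in 3 of 4 Ecad lists (all but Ma_1181) and 3 of 5 ΔEcad lists (Ma_1456, Ma_1057 and Ma_1064). Its percentile was 91.3 in Ma_1007, 83.8 in Ma_1014, 76.1 in Ma_1039, 91.0 in Ma_1456, 49.1 in Ma_1057 and 92.4 in Ma_1064. In both genotypes there were thus lines with a strong peak and lines with none.

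The covered length in the window of Snai1 was 9.53 kb in Ma_1007, 3.85 kb in Ma_1181, 9.76 kb in Ma_1014 and 7.95 kb in Ma_1039. In the ΔEcad lines it was 3.62 kb in Ma_1062, 6.40 kb in Ma_1456, 5.09 kb in Ma_1057, 4.48 kb in Ma_1064 and 2.58 kb in Ma_1069. Of the Ecad lines only Ma_1181 fell within the ΔEcad range. The means were 7.77 ± 2.74 kb (SD, n = 4) and 4.43 ± 1.45 kb (SD, n = 5), a difference of −3.34 kb that did not pass the test (exact permutation p = 0.0635, adjusted p = 0.344). Without Ma_1181 the difference was −4.65 kb (exact permutation p = 0.0179), and with only the peaks above the median of each list it was −3.48 kb (exact permutation p = 0.0317). Over all lines left out in turn it ran from −4.65 to −2.68 kb (exact permutation p between 0.0179 and 0.143). It did not pass in lists scaled to equal covered length (−1.72 kb, exact permutation p = 0.167) or cut to equal length (−3.12 kb, exact permutation p = 0.0556).

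Part of the covered length around Snai1 belonged to its neighbours. The widest element, chr2:167489559-167493563, was called in all 9 lists and covered the starts of Rnf114, a ubiquitin ligase gene, and Spata2. The second, chr2:167503166-167504123, lay at another annotated start of Rnf114, at −34.6 kb from the start of Snai1, with its summit in an exon. It was called in 4 of 4 Ecad lists and, of the ΔEcad lists, in Ma_1456 only (Fisher's exact p = 0.0476, adjusted p = 1). Fisher p-values under 0.05 were found for 3.66% of all elements, and this one did not pass when any line other than Ma_1456 was left out (exact p = 0.143 each time). With both elements left out, an alternative added after the data were seen, peaks covered 3.44 ± 2.44 kb (SD, n = 4) in Ecad and 2.05 ± 1.22 kb (SD, n = 5) in ΔEcad, and the difference was −1.40 kb (exact permutation p = 0.317). The remaining 4 elements were called in between 1 and 7 lists each, and 3 of them lay in introns of the uncharacterised gene Gm11476, between 45.3 and 51.0 kb from the start of Snai1.

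Snai2, which encodes Slug and is required in the melanocyte lineage, had a single element, and it lay over its own start. The gene lies at chr16:14705852-14709385 (+ strand, ENSMUSG00000022676.7) and the element at chr16:14704677-14707765. The peak at the start was 1266 bp wide in Ma_1007, 889 bp in Ma_1181, 1668 bp in Ma_1014 and 1744 bp in Ma_1039. It was 3071 bp wide in Ma_1456 and 1402 bp in Ma_1064, and it was not called in Ma_1062, Ma_1057 or Ma_1069. The fold enrichment ran from 5.77 in Ma_1181 to 15.2 in Ma_1456, so the widest and highest peak was that of a ΔEcad line.

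The Snai2 promoter was called in 4 of 4 Ecad and 2 of 5 ΔEcad lists (Fisher's exact p = 0.167, adjusted p = 1), beside 5.3% of all 16471 tested promoters with an unadjusted p under 0.05. Peaks covered 1.63 ± 0.659 kb (SD, n = 4) in Ecad and 0.895 ± 1.36 kb (SD, n = 5) in ΔEcad, which did not pass the test (exact permutation p = 0.365). The strongest peak stood at percentiles between 29.6 and 69.5 in the Ecad lists, and at 73.6 in Ma_1456 and 65.0 in Ma_1064. All 6 calls remained when the lists were cut to equal length.

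Zeb1, a zinc-finger and homeodomain repressor, was marked mainly in its introns and beyond its 3′ end. The gene lies at chr18:5591860-5775467 (+ strand, ENSMUSG00000024238.15) and its window held 11 elements. A peak within 1 kb of its main start was listed in Ma_1007 (2041 bp wide, fold enrichment 13.1), Ma_1181 (699 bp, 5.28) and Ma_1062 (646 bp, 5.41). Starts of Gm10125 and Gm2238 lie at the same element, and H3K27ac carries no strand, so the peak cannot be assigned to 1 of these genes. The promoter call was 2 of 4 against 1 of 5 lists (Fisher's exact p = 0.524). In lists of equal length only Ma_1007 and Ma_1062 kept it.

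Both elements of Zeb1 that were called in all 9 lists lay far from the start. The first, chr18:5665477-5667851, was intronic, 74.4 kb from the start, with percentiles between 33.0 and 79.6. The second, chr18:5817991-5821313, lay between genes, 228 kb from the start and past the end of Zeb1. It was among the strongest peaks of each list, at the 97.8th percentile in Ma_1007, the 87.3rd in Ma_1181, the 98.2nd in Ma_1014 and the 99.0th in Ma_1039. In the ΔEcad lines it stood at the 98.6th percentile in Ma_1062, the 97.3rd in Ma_1456, the 94.7th in Ma_1057, the 92.6th in Ma_1064 and the 92.6th in Ma_1069. The strongest percentile of the window did not differ (95.6 ± 5.55, SD, n = 4, against 95.2 ± 2.71, SD, n = 5, exact permutation p = 0.889). The widest element, chr18:5617231-5621959 in an intron, was called in all lists but those of Ma_1064 and Ma_1069.

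Peaks covered 21.7 kb of the Zeb1 window in Ma_1007, 8.24 kb in Ma_1181, 8.51 kb in Ma_1014 and 11.5 kb in Ma_1039. In the ΔEcad lines they covered 10.5 kb in Ma_1062, 7.03 kb in Ma_1456, 7.49 kb in Ma_1057, 4.19 kb in Ma_1064 and 4.01 kb in Ma_1069. Ma_1007 stood above all others, and Ma_1062 exceeded 2 of the Ecad lines. The means of 12.5 ± 6.31 kb (SD, n = 4) and 6.65 ± 2.68 kb (SD, n = 5) differed by −5.82 kb (exact permutation p = 0.0714, adjusted p = 0.358). The difference was −2.76 kb without Ma_1007 (exact permutation p = 0.161), and it passed the threshold without Ma_1181, Ma_1014 or Ma_1062 (−7.24, −7.15 and −6.79 kb, exact permutation p between 0.0286 and 0.0357). It passed as well over the gene body alone (−5.51 kb, exact permutation p = 0.0476) and with only the peaks above the median of each list (−4.99 kb, exact permutation p = 0.0397). The difference did not pass in lists scaled to equal covered length (−2.69 kb, exact permutation p = 0.206) or cut to equal length (−5.06 kb, exact permutation p = 0.0873).

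Zeb2, the related factor of the differentiated pigment lineage, had the longest covered length of the 6 genes in every list. The gene lies at chr2:44983632-45117395 (− strand, ENSMUSG00000026872.17) and its window held 14 elements. The widest, chr2:45099024-45119966, was 20943 bp long, covered the start, the first introns and the antisense gene Zeb2os, and was called in all 9 lists. A single peak, between 14747 bp (Ma_1057) and 20681 bp (Ma_1014) wide, spanned most of it in Ma_1181, Ma_1014, Ma_1039, Ma_1062, Ma_1456 and Ma_1057. In Ma_1007, Ma_1064 and Ma_1069 it was broken into several peaks, the widest of 10853, 8204 and 6035 bp. The strongest peak of the element stood between the 91.9th and the 97.9th percentile of its list. Zeb2 and Zeb2os cannot be told apart in these data.

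The other element of Zeb2 called in all 9 lists, chr2:45015783-45021320, was intronic, 99.4 kb from the start, with percentiles from 50.6 in Ma_1069 to 94.0 in Ma_1456. Beyond the 3′ end, chr2:44965574-44971000 was called in 3 of 4 Ecad and 3 of 5 ΔEcad lists. There the percentile was 66.9 in Ma_1007, 18.5 in Ma_1014 and 5.12 in Ma_1039, and 74.9 in Ma_1456, 72.4 in Ma_1057 and 92.4 in Ma_1064. All 3 ΔEcad lists that called it ranked it above every Ecad list, while Ma_1062 and Ma_1069 did not call it (Fisher's exact p = 1 for the calls). This element was singled out after its values were seen.

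Peaks covered 32.5 kb of the Zeb2 window in Ma_1007, 23.9 kb in Ma_1181, 27.6 kb in Ma_1014 and 24.4 kb in Ma_1039. In the ΔEcad lines they covered 21.6 kb in Ma_1062, 35.7 kb in Ma_1456, 24.6 kb in Ma_1057, 25.9 kb in Ma_1064 and 19.4 kb in Ma_1069. The groups overlapped widely, at 27.1 ± 3.96 kb (SD, n = 4) and 25.4 ± 6.29 kb (SD, n = 5), and the difference of −1.68 kb did not pass (exact permutation p = 0.651, adjusted p = 0.879). The direction turned when each list was scaled to the same total covered length: Zeb2 then covered 23.8 ± 2.34 kb (SD, n = 4) in Ecad and 28.9 ± 2.68 kb (SD, n = 5) in ΔEcad, a difference of 5.11 kb (exact permutation p = 0.0317, adjusted p = 0.562). On this scale the Ecad lines ran from 20.9 to 26.0 kb and the ΔEcad lines from 25.1 to 31.9 kb, and only Ma_1062 lay within the Ecad range. Of all genes, 2.07% were higher and 6.4% lower in ΔEcad with an unadjusted p under 0.05 on that scale. In lists cut to equal length the difference was −0.761 kb (exact permutation p = 0.841).

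**Figure D2:**
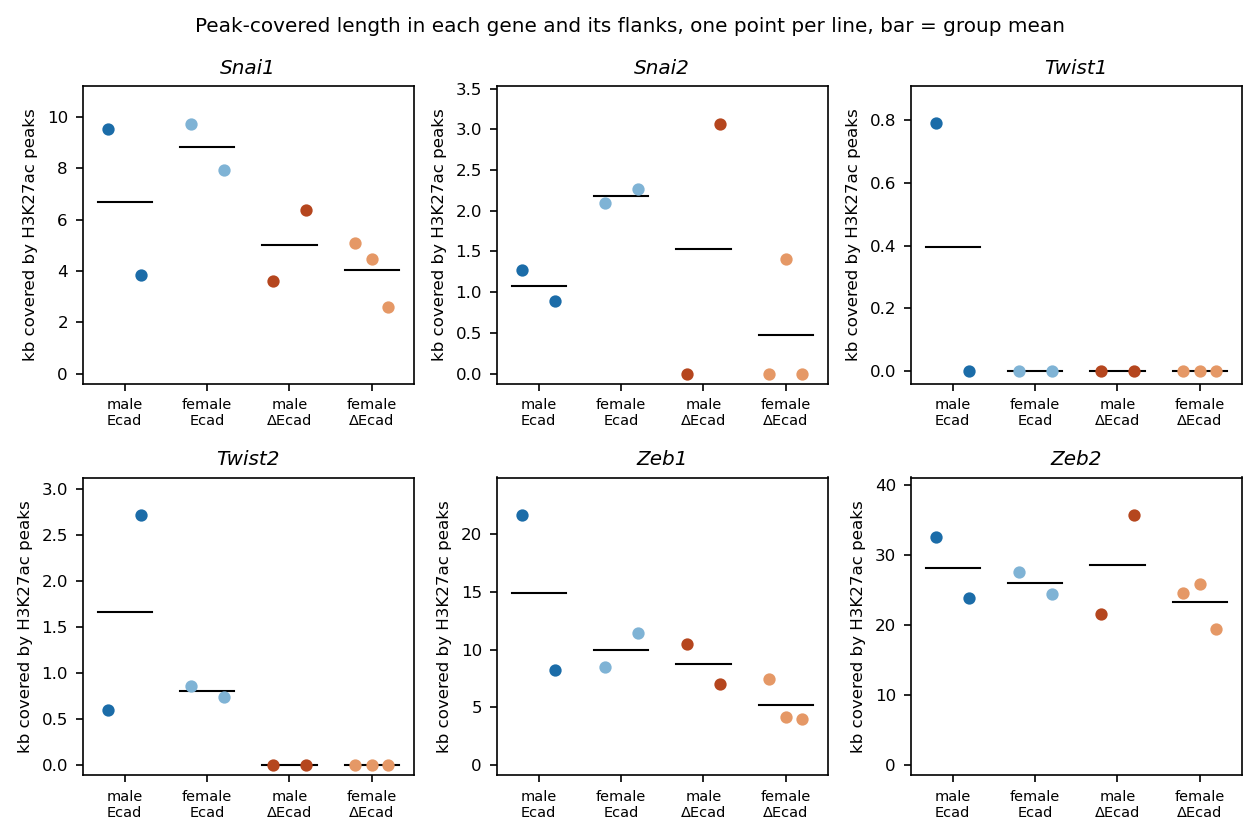
Length in kb covered by H3K27ac peaks in each gene body and the 50 kb on each side, 1 point per line, with a bar at the mean of each group of sex and genotype. The points of Ecad and ΔEcad lines were separate for Twist2 alone, with 4 Ecad lines between 0.598 and 2.72 kb and 5 ΔEcad lines at 0; the axes differ between genes.

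Across the 6 genes, all 6 mean covered lengths were lower in ΔEcad as deposited, and 1 of 6 passed the unadjusted test, beside 15.4% of all genes tested (15.2% lower and 0.262% higher). The median difference was −1.45 kb over the 6 genes and −0.662 kb over all 40527 genes, of which 76.2% were lower in ΔEcad. These medians were not corrected for window length, which ran from 102 kb (Twist1) to 284 kb (Zeb1) among the 6 genes. No gene of the whole table passed after adjustment. For the strongest percentile, 1 of 6 genes passed (Twist2, exact permutation p = 0.00794, adjusted p = 0.339), beside 12.3% of all genes. A list without a peak in the window counted as 0. For Twist2 this test therefore repeats the presence of a peak in 4 of 4 Ecad and 0 of 5 ΔEcad lists and adds nothing to it. When all lists were scaled to equal covered length, the median difference over all genes became −0.135 kb, and Twist2 (−1.19 kb, exact permutation p = 0.00794) and Zeb2 were the genes that passed, in opposite directions. With only the peaks above the median of each list, Snai1 and Zeb1 passed and Twist2 did not, beside 14.9% of all genes.

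The covered length of several of these genes followed the length of the whole list. Over the 9 lines, Pearson's r between a gene's covered length and that of its list was 0.853 for Zeb1, 0.832 for Twist1, 0.795 for Snai1, 0.767 for Zeb2, 0.527 for Snai2 and 0.157 for Twist2. These are descriptions, since each point shares its library with the total. Twist2 had the lowest r, and its highest value, 2.72 kb, was that of Ma_1181, whose list covered 40.7 Mb. In lists cut to equal length the groups of Twist2 overlapped (exact permutation p = 0.167). The part of list length in its difference was not tested.

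**Figure D3:**
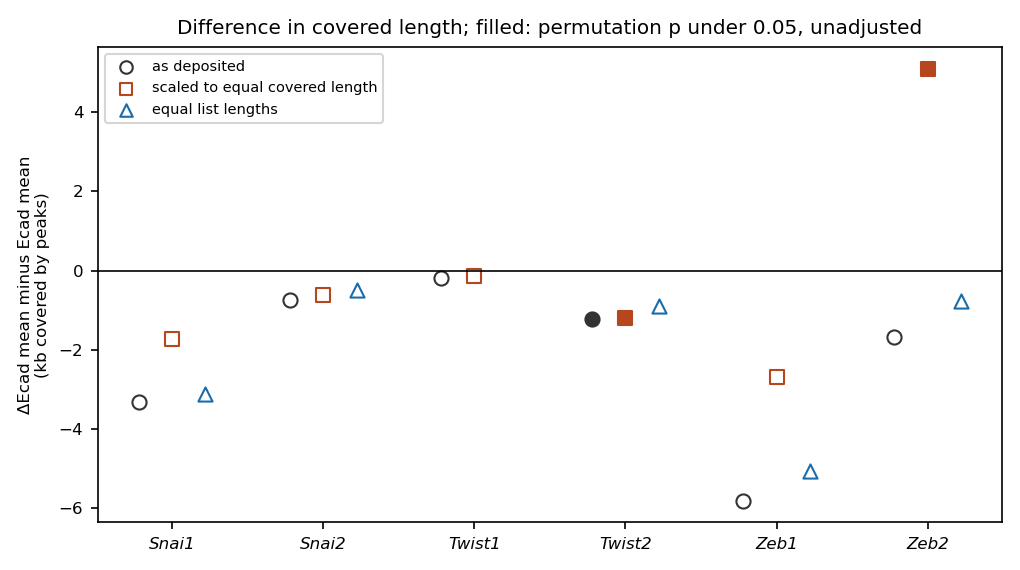
Mean covered length of the 5 ΔEcad lines minus that of the 4 Ecad lines, in kb, for each gene with the lists as deposited (circles), scaled to equal covered length (squares) and cut to equal length (triangles), filled where the unadjusted exact permutation p was under 0.05. Zeb2 moved from −1.68 kb to 5.11 kb with scaling, and the 5 other genes stayed below 0; no triangle is drawn for Twist1, which had no peak left.

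Of the 35 merged elements of the 6 windows, 5 were called in all 9 lists (1 at Snai1, 2 at Zeb1 and 2 at Zeb2). That is close to the share over all elements, 13.7%. A further 11 were called in 1 list only, as were 34% of all elements, and 6 of the 11 came from Ma_1007, 3 from Ma_1456 and 1 each from Ma_1014 and Ma_1069. The summits of 16 lay in introns and 3 in exons of the gene itself, and 8 lay between genes. Elements absent from every ΔEcad list numbered 9, against 26% of all elements, and those absent from every Ecad list numbered 4, against 18.5%. The counts of the 6 windows thus lay near or below the shares over all elements. Only those of Twist2 and of the Rnf114 exon reached an unadjusted p under 0.05, and both were called more often in Ecad.

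**Figure D4:**
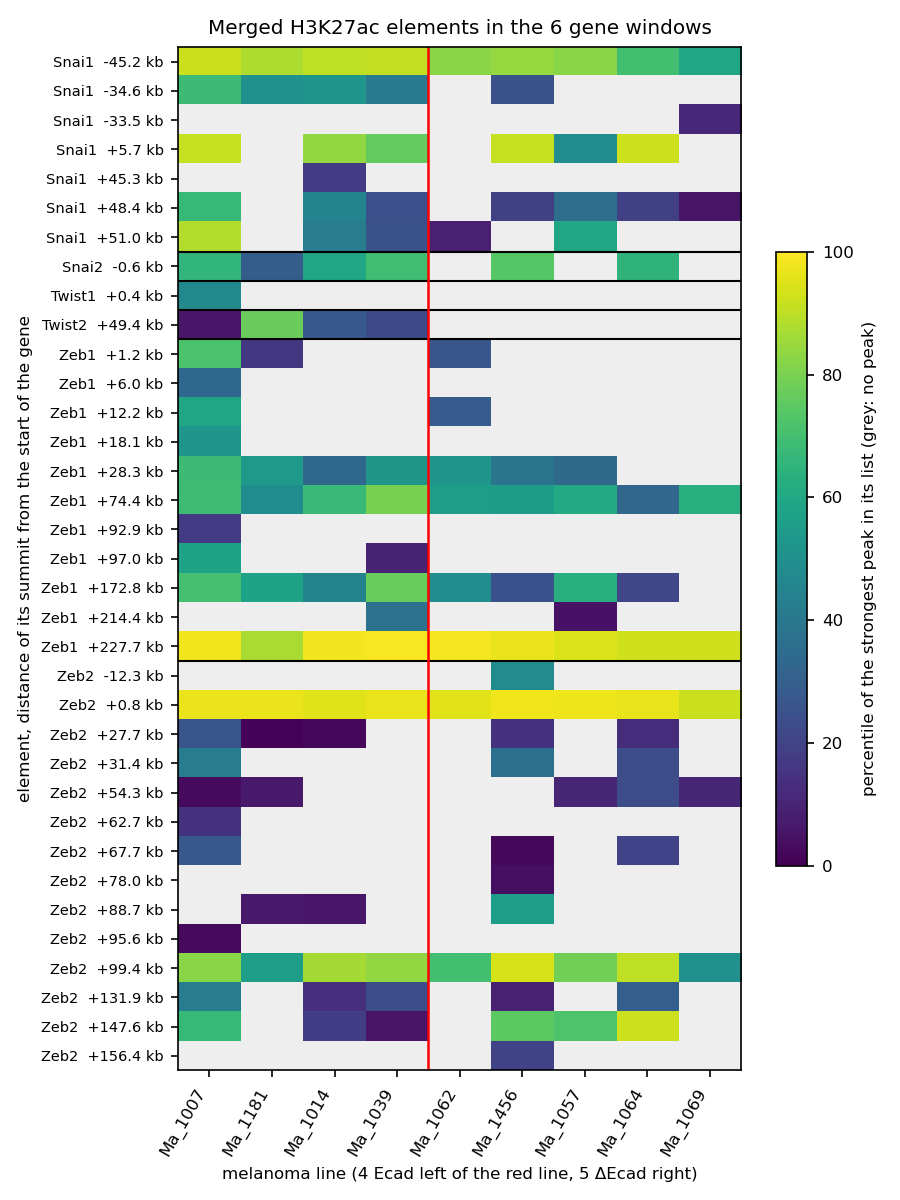
Percentile of the strongest peak of each of the 35 elements (rows, named by gene and the distance of the summit from its start in kb) within the list of each line (columns, Ecad left of the red line and ΔEcad right), with grey where no peak was called. The rows coloured in all 9 columns are the element at Rnf114 and Spata2 (−45.2 kb from Snai1), those at 74.4 and 228 kb of Zeb1 and those at 0.802 and 99.4 kb of Zeb2.

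Motifs were searched within 150 bp of the strongest summit of the 23 elements of Snai1, Twist1, Twist2 and Zeb2, out of 35 elements. The 1 element of Snai2 and the 11 of Zeb1 were left out of the search, so the shares do not cover these genes. The E-box CAGGTG was found in 2 of 23 elements (8.70%, against 15.4% of all 59644 elements with sequence), CACGTG in 3 (13.0% against 3.73%) and TGANTCA in 2 (8.70% against 9.22%). CTTTGA was found in 3 (13.0% against 20.8%) and GGAATG in 4 (17.4% against 15.5%). These shares are descriptions of small numbers, and a match is not a bound site.

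In the sex-specific comparison, the 3 female ΔEcad lines were set against the 6 other lines, the contrast in which the study places its main interest. None of the 6 genes passed for promoter calls (7.8% of all genes did) or for covered length (23.8%). The Snai2 promoter was called in Ma_1064 alone of the 3 female ΔEcad lines and in 5 of the 6 others (Fisher's exact p = 0.226). The Zeb1 promoter was called in 0 of 3 and 3 of 6 (Fisher's exact p = 0.464), and all 3 calls were in male lines. Zeb1 showed the greatest difference in covered length, −6.01 kb (exact permutation p = 0.107), followed by Zeb2 with −4.32 kb (exact permutation p = 0.274) and Snai1 with −2.80 kb (exact permutation p = 0.155). Over all genes the median was −0.875 kb, and over the 6 genes −1.97 kb, again without correction for window length. When only peaks above the median of their list were kept, Snai1 (−3.54 kb) and Zeb2 (−5.60 kb) reached an exact permutation p of 0.0476, beside 19.8% of all genes past the threshold on those peaks.

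Within females, every ΔEcad line had less covered length than every Ecad line for Snai1, Snai2, Twist2 and Zeb1, and within males for Twist2. Over all genes, 40.2% were lower in this way in females and 22.3% in males. The difference between the sexes in the effect of genotype was tested by permuting sex within genotype. It passed for none of the 6 genes, beside 8.41% of all genes, and its smallest p was that of Snai2, with −1.71 kb in females and 0.458 kb in males (difference −2.17 kb, exact permutation p = 0.150). For Snai2 this passed without Ma_1062 (−3.71 kb, exact permutation p = 0.0417), the male ΔEcad line in which no peak was called.

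Genes with the most similar covered lengths over the 9 lines were sought among 16808 to 16835 protein-coding genes elsewhere in the genome, as a description. The most similar were Acer3 for Snai1 (r = 0.987), Ppp4r1 for Snai2 (r = 0.975), Gm34302 for Twist1 (r = 0.996), Mageh1 for Twist2 (r = 0.990), Spag6 for Zeb1 (r = 0.985) and Grb2 for Zeb2 (r = 0.983). The next were Ppp1r1c and Plekha4, Ppp1r21 and Acp2, Tmem255b and Elavl2, 4930578C19Rik and Adcy5, Dok4 and Polr2c, and Sppl3 and Trpv2, with r between 0.966 and 0.995. Among the members themselves, Twist1 and Zeb1 had the highest r, 0.882, and Ma_1007 was the highest line for both.

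The other EMT genes were taken from fixed lists. Of 28 inducers, partners and other EMT factors, 23 had a promoter called in at least 1 list and 12 in all 9, among them the E proteins Tcf3, Tcf4 and Tcf12 that pair with Twist, the corepressor genes Ctbp1 and Ctbp2 that serve Zeb factors, and the TGF-β pathway genes Tgfbr2, Smad2 and Smad3. Snai3, the third Snail gene, was called in none. Of the 26 with a peak, 11 were lower and 2 higher in covered length in ΔEcad at an unadjusted p under 0.05, beside 15.2% of all genes lower and 0.262% higher, and 0 passed after adjustment by Benjamini-Hochberg. The inducing, mesenchymal, epithelial and microRNA lists held 26, 21, 21 and 6 genes with a peak. Together, 15 of these genes were lower and 2 higher as deposited, beside the same 15.2% and 0.262% of all genes. When the peak lists were scaled to equal covered length, 8 were lower and 3 higher, beside 6.4% of all genes lower and 2.07% higher. Over the 26 inducers, partners and other EMT factors with a peak, the median difference was −2.65 kb, and all genes stood at −0.662 kb. Neither was corrected for window length.

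Btrc, Ctbp2, Foxc2, Sox4 and Tgfbr1 were the 5 of smallest p, each with an exact permutation p of 0.00794 and an adjusted p of 0.230. Ctbp2 covered 22.6 ± 3.17 kb (SD, n = 4) in Ecad and 13.4 ± 1.48 kb (SD, n = 5) in ΔEcad. Tgfbr1, a TGF-β receptor, covered 9.44 ± 4.70 kb and 2.59 ± 1.59 kb, and Sox4 covered 9.53 ± 2.61 kb and 5.99 ± 0.551 kb. Btrc, an E3 ligase component that targets Snail for degradation, covered 1.05 ± 0.349 kb and 0.212 ± 0.202 kb. For Foxc2, an EMT factor, the values were 0.436 ± 0.201 kb and 0 kb in all 5 ΔEcad lists. The 2 genes of the list that were higher in ΔEcad, named after their values were seen, were Tcf4 and Ctbp1. Tcf4 covered a mean of 14.3 kb in Ecad and 32.7 kb in ΔEcad (exact permutation p = 0.0159, adjusted p = 0.258). Ctbp1 covered 1.08 kb and 2.38 kb (exact permutation p = 0.0238, adjusted p = 0.272). The number of called promoters of the list was 23, 20, 19 and 20 in the Ecad lines, 20 and 21 in the male ΔEcad lines and 16, 14 and 13 in the female ΔEcad lines. The 3 female ΔEcad lines were thus the lowest, and they had 3 of the 4 smallest total covered lengths, whose part in this was not tested.

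Of 21 mesenchymal genes, 11 promoters were called in at least 1 list, and Vim, Cdh2, Sparc, Itgb1 and Mmp14 in all 9. Cdh2 encodes N-cadherin and Vim the intermediate filament vimentin. Loxl2, Tnc, Vim and Col1a1 were lower in covered length in ΔEcad at an unadjusted p under 0.05 and none was higher. These 4 of 21 genes stand beside 15.2% of all genes that were lower, so the count lay near that of the whole table. Loxl2, a matrix cross-linking enzyme, covered 8.87 ± 5.22 kb (SD, n = 4) and 2.60 ± 1.08 kb (SD, n = 5), with an exact permutation p of 0.00794. Vim covered 13.5 ± 3.63 kb and 9.06 ± 1.16 kb, and Tnc, which encodes the matrix protein tenascin C, 4.86 ± 1.60 kb and 2.09 ± 0.917 kb (exact permutation p = 0.0238 for both). For the collagen gene Col1a1 the values were 7.53 ± 0.551 kb and 4.18 ± 2.33 kb (exact permutation p = 0.0397), and the promoter of this gene, which is also a fibroblast marker, was called in no list. The adjusted p-values of these genes lay between 0.230 and 0.305, and the median of the list was −0.159 kb.

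Of 22 epithelial genes, which include targets these factors are known to repress, 6 had a promoter called in at least 1 list, and only the tight junction gene Tjp1 in all 9. Between 3 and 5 were called per Ecad list and between 2 and 4 per ΔEcad list. None of the 21 with a peak passed the test of covered length, and the median difference was −0.502 kb. None of the 6 genes of the microRNAs known to target Zeb1 and Zeb2 (Mir200a, Mir200b, Mir429, Mir200c, Mir141) and of Mir205 had a called promoter in any list, though all 6 had a peak in their window in at least 1 list. The calls used the annotated starts of these genes, so a start of a longer transcript further upstream was not examined. No promoter of any of these lists reached an unadjusted Fisher p under 0.05 between Ecad and ΔEcad. In the comparison of female ΔEcad with the other lines, 4 promoters of the inducing and partner genes did, beside 7.8% of all promoters, and are named after their values were seen. Those of Tgfbr1, Kdm1a and Fbxw7 were called in 6 of 6 other lines and 0 of 3 female ΔEcad lines (Fisher's exact p = 0.0119, adjusted p = 0.289), and that of Tgfb1 in 5 of 6 and 0 of 3 (Fisher's exact p = 0.0476, adjusted p = 0.611).

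**Figure D5:**
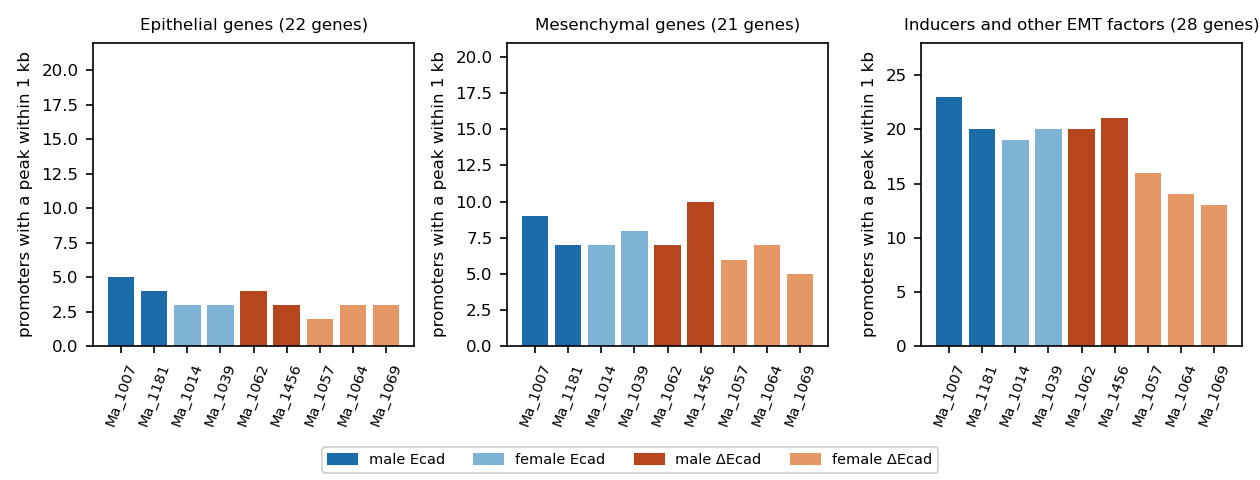
Number of promoters with a peak within 1 kb in each line, for the 22 epithelial, 21 mesenchymal and 28 inducing or partner genes, with bars coloured by sex and genotype and each axis running to the size of the list. The third panel shows the female ΔEcad lines lowest, at 16, 14 and 13 promoters, while the epithelial panel stays between 2 and 5 in all lines.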

How the data were processed

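The deposited peak lists hold, per peak, its position and summit, a score, a fold enrichment (a linear ratio) and −log10 p and −log10 q values, all computed by the authors' peak caller. Reads had been aligned by the authors to GRCm38 (mm10) with bowtie2, and the submitters' processing notes name Bowtie2 2.4.5, MACS2 2.2.7.1 and deepTools 3.5.1.0.0. Caller settings and the control of each list are not given in the sources used here, and the 4 input libraries were not analysed here. The lowest −log10 q was above 5 in every list. The deposited score was read but not used. The lists hold no read counts, so no counting interval was possible.

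Peaks were ranked by −log10 q within each list, and percentiles came from these ranks, with 0 for a window without a peak. TSSs were those of GENCODE M21 (141767 transcripts). Peaks overlapping between lists were merged into elements. Promoter and element calls were compared by Fisher's exact test, and covered length and strongest percentile by exact permutation of the difference of means over all 126 splits (84 for 3 against 6 lines, 60 arrangements for the sexes), all two-sided, for every gene or element with a call, with Benjamini-Hochberg adjustment over all of them. The interval arithmetic and the tests were checked on simulated data. Python 3.11.15, numpy 2.4.6, pandas 2.3.3 and scipy 1.17.1 were used. P-values measure the spread between lines. The members, lists and tests were chosen with earlier results of these data known.

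Named were all 6 members, the deleted gene Cdh1, up to 5 genes per list with the smallest unadjusted p under 0.05, the 3 genes with the most similar covered length per member (more than 1 Mb away, peaks in at least 3 lists), and elements that were called in all 9 lists, had a Fisher p under 0.05 or were the widest of a window. Outside this rule, the element nearest Snai1, 1 element beyond the 3′ end of Zeb2 and 4 promoters of the female comparison are described. The 2 list genes higher in ΔEcad, Tcf4 and Ctbp1, are also outside it. All of these were chosen after their values were seen. Other genes are named by their list, and the alternatives tried are given with their effect in the closing section.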

Additional observations from a re-analysis of the deposited data

Results flagged for a closer look

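In 20 groups of 4 or 5 values, the highest and the lowest line were compared with their nearest neighbour by Dixon's criterion, and 4 values in the lines Ma_1007 and Ma_1181 stood apart, where chance flags about 1 group in 20. The covered length of Twist1 in Ma_1007 was 0.790 kb and its percentile 47.9, while the 3 other Ecad lines were at 0. Both values come from the same peak, and with 3 lines at 0 any single peak meets the criterion. For Twist2, Ma_1181 had 2.72 kb, well above the 0.598 to 0.858 kb of the other Ecad lines. For Zeb1, the strongest peak of Ma_1181 stood at the 87.3rd percentile and those of the other Ecad lines at 97.8 to 99.0. Without Ma_1181 the difference of Twist2 in covered length was −0.733 kb, against −1.23 kb with all lines.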

How the results depend on the processing

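No paired analysis was possible because replicate numbers only follow the order of deposition and each list comes from a separate line. The number of the 6 genes past an unadjusted p under 0.05 in covered length, 1 as deposited, was 2 when lists were scaled to equal covered length, 2 when only peaks above the median of their list were kept (Snai1 and Zeb1, while Twist2 no longer passed), 0 in lists of equal length and 1 to 3 when a line was left out. The share of all genes past it was 8.47% when scaled and 6.04% to 13.9% with a line left out, and 75.6% of these calls were lower in ΔEcad when scaled, against 98.3% as deposited (65.1% and 92.4% for female ΔEcad against the others). The list genes lower in ΔEcad numbered 15 as deposited, 8 when scaled and 9 to 17 with a line left out, and those higher 2, 3 and 1 to 2. Of all genes, 15.2% were lower and 0.262% higher as deposited, and 6.4% and 2.07% when scaled. For the strongest percentile, 2 genes passed when peaks were ranked by fold enrichment and 0 with the gene body alone or with flanks of 100 kb, where Twist2 no longer passed, and 5.96% to 11.1% of all genes with a line left out. Element calls passed for 1 of 35 when peaks had to cover 50% of an element. They passed for 1 as well with peaks above the median and in lists of equal length. Each time this was the element at the Rnf114 exon, and the Twist2 element did not pass. With a line left out, 1 to 2 elements passed (0.587% to 1.44% of all elements). For promoter calls 1.10% to 2.38% of all genes passed with a line left out, and 4.41% to 8.31% in the female comparison. In female ΔEcad against the others, covered length passed for 1 gene with flanks of 100 kb (Twist2) and for 2 with peaks above the median, and 12.9% to 21.1% of all genes passed with a line left out. The difference between the sexes passed for 0 to 1 gene and 0% to 11.0% of all genes.

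The direction turned for Zeb2 in covered length when scaled (5.11 kb, and 3.85 kb in the female comparison), and with a line left out it ran from −4.25 to 0.122 kb. It also turned with a line left out for the strongest percentile of Zeb1 (−3.17 to 0.741) and Zeb2 (−0.963 to 0.540). The difference between the sexes turned for Zeb1 (−0.721 kb when scaled, −5.30 to 8.14 kb with a line left out), Twist2 (−0.203 to 1.92 kb) and Zeb2 (−10.3 to 3.90 kb). None of these reached an unadjusted p under 0.05 apart from the scaled Zeb2, and the causes were not tested. With the gene body alone the window of Twist2 held no peak. Depth limits every call to the peaks past the caller's threshold.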
